A study of Homo sapiens with 6 samples.

Results

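Cullin-RING ligases mark proteins with ubiquitin. A cullin acts as the scaffold, holding a RING protein that recruits the ubiquitin-conjugating enzyme at one end and, through an adaptor, an exchangeable substrate receptor at the other. The receptor decides which protein is marked: F-box proteins serve CUL1, BTB-Kelch proteins serve CUL3, and ZER1 and ZYG11B serve CUL2. The ligases are switched on when the small protein NEDD8 is attached to the cullin, and switched off when the COP9 signalosome removes it.

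The genes described here are every row of the deposited table whose symbol is FBXL, FBXO or FBXW with a number, KLHL with a number, or CUL with a number, together with ZER1 and ZYG11B. There were 109 such genes among 61806. They comprise 62 F-box genes (17 FBXL with leucine-rich repeats, 9 FBXW with WD repeats and 36 FBXO with other or no known repeats), 37 Kelch genes, 8 cullins and 2 ZYG11 family genes. They were chosen by name, with earlier results of these data known, and lie on 21 chromosomes. In the gene ontology annotation of the deposited table, 43 of the 109 carried the term for the SCF ubiquitin ligase complex, of which 38 were F-box genes and 5 were cullins. A further term, the Cul3-RING ubiquitin ligase complex, was carried by 17, of which 16 were Kelch genes. The term for ribosome biogenesis, the subject of the series title, was carried by 2 of the 109, CUL4A and CUL4B.

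The samples were 293T cells, a long-established line of human embryonic kidney origin, transfected by lipid reagent with a plasmid labelled GFP-812 (3 libraries) or with a plasmid labelled GFP, for green fluorescent protein (3 libraries). What the suffix of GFP-812 refers to is not explained in the labels, and the series title names truncated NEK1. Both groups therefore carried the transfection reagent and a GFP plasmid. Poly(A) RNA was sequenced. Whether replicates were grown as separate cultures is not stated, so a p-value here sets a difference against the variation among libraries, which could be technical. Total counts were 14255148 to 17613814 in GFP-812 libraries and 16061389 to 16144531 in GFP libraries.

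NEK1, the kinase named in the title, stood at 562.73, 518.33 and 493.72 FPKM in the GFP-812 libraries, against 3.82, 3.99 and 3.91 FPKM in the GFP libraries (FPKM is the count scaled by exonic length and by the library's total count). The labels call the cells kidney epithelium. Summed over 4 epithelial markers, the level was 26.5 to 29.2 FPKM in GFP-812 libraries and 25.5 to 26.0 FPKM in GFP libraries, led by the keratins KRT8 and KRT18. Of 6 kidney tubule markers, 5 stayed under 1 FPKM in every library and UMOD was at 0, with sums of 2.63 to 2.88 FPKM in GFP-812 libraries and 2.18 to 2.53 FPKM in GFP libraries. The sums of the blood, endothelial, fibroblast and neuronal markers were at most 2.6 FPKM in GFP-812 libraries and 2.72 FPKM in GFP libraries. The blood and endothelial markers, and some of the kidney tubule and fibroblast ones, had too few counts to be tested. No marker that was tested passed. On the first principal component the GFP-812 libraries stood at -13.1, -19.2 and -14.3 and the GFP libraries at 26.3, 16.7 and 3.65, so that GFP replicate 3 was the nearest to the GFP-812 libraries. For that reason each call below is given with and without single libraries.

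Of the 109 genes, 94 had enough counts to be tested, 2 rose in GFP-812 cells (CUL4B and FBXL16), 5 fell (ZER1, CUL5, FBXO28, FBXO30 and FBXO38) and 87 did not pass. A gene is said to rise or fall where edgeR's quasi-likelihood test gave a Benjamini-Hochberg adjusted p under 0.05 over all 16834 genes tested. Over all genes tested, 1.18% rose and 2.67% fell, 3.84% in either direction, while 2.13% and 5.32% of the 94 did. With 94 genes, those shares rest on 2 and 5 genes. The 5 include ZER1, which is in the set by its own name and not by a numbered symbol. Because members were chosen with earlier results known, the shares cannot show whether the set differs from all genes tested. The median log2 fold change of GFP-812 over GFP was -0.03 among the 94 and 0.01 among all genes tested. Of the 94, 37 lay above 0 and 57 below, against 8728 above and 8106 below among all genes tested. In 7 of the 94 the 3 GFP-812 libraries all lay above the 3 GFP libraries in counts scaled to library size (7.45%), and in 14 they all lay below (14.9%), against 8.16% and 12.4% of all genes tested. Both counts stand close to those shares. At an unadjusted p under 0.05 in edgeR's test, 4 of the 94 were higher and 13 lower, against 1219 and 1498 of the 16834 genes tested. In bulk RNA, fewer cells carrying a transcript and less of it per cell cannot be told apart.

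**Figure D1:**
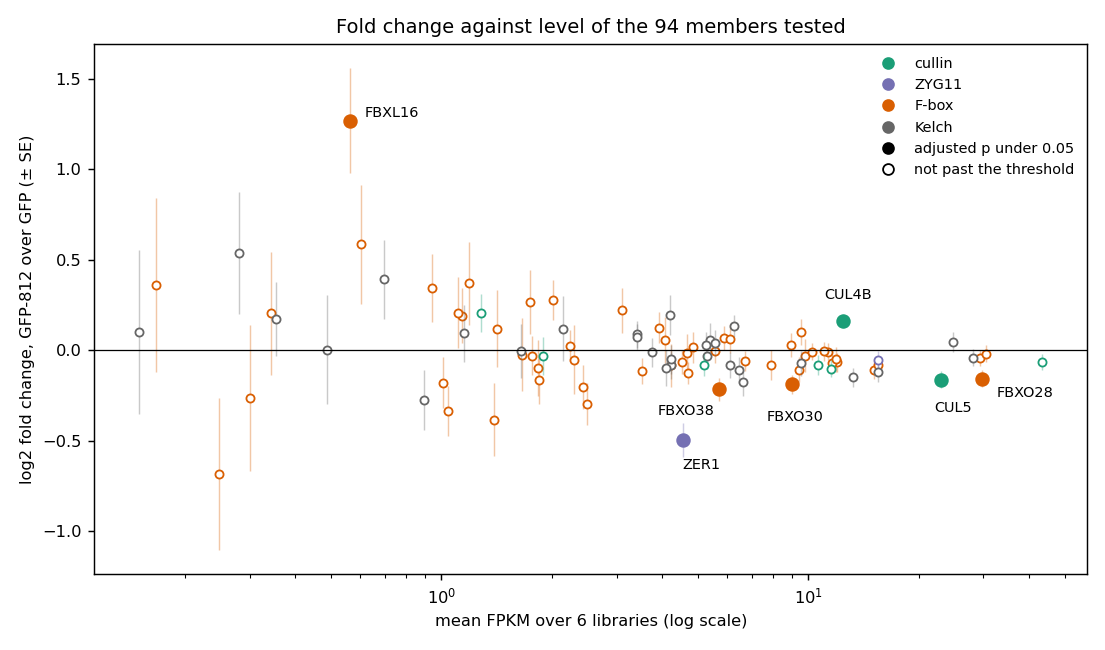
Log2 fold change of GFP-812 over GFP against mean FPKM over the 6 libraries (log scale) for the 94 genes tested, coloured by family, with bars of 1 SE and filled symbols for adjusted p under 0.05. Most genes above 1 FPKM lie close to 0, FBXL16 (log2 fold change 1.27) stands above them at a low level, and ZER1 (-0.50) stands below.

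ZER1 and ZYG11B are the receptors through which CUL2 ligases recognise proteins with an exposed glycine at the N-terminus. ZER1 (ENSG00000160445, hg38 chr9:128729786-128772414, minus strand) had 3.64, 3.90 and 3.70 FPKM in GFP-812 libraries, against 5.71, 5.45 and 4.84 FPKM in GFP libraries. Every GFP-812 library lay below every GFP library. ZER1 averaged 3.75 ± 0.136 FPKM in GFP-812 cells and 5.33 ± 0.447 FPKM in GFP cells (SD, n = 3 each). The log2 fold change was -0.50 (SE 0.0961, fold 0.709), with an adjusted p of 0.000614 by edgeR's quasi-likelihood test. ZER1 fell in each of the 6 fits that left out 1 library, with log2 fold changes of -0.56 to -0.44. Its counts were modest, at 227, 266 and 285 reads in GFP-812 libraries and 403, 383 and 340 reads in GFP libraries. The gene overlaps the divergent transcript ZDHHC12-DT in the table, and whether the counting used strand is not given in the sources used here.

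ZYG11B, which shares the glycine specificity, was the more abundant receptor. It had 14.85, 14.86 and 15.59 FPKM in GFP-812 libraries, against 15.18, 16.38 and 15.85 FPKM in GFP libraries. The groups overlapped, and the log2 fold change was -0.05 (SE 0.0471, adjusted p 0.634, edgeR's quasi-likelihood test). Within each library, the ratio of ZER1 to ZYG11B FPKM was 0.245, 0.262 and 0.237 in GFP-812 cells and 0.376, 0.333 and 0.305 in GFP cells. The 3 ratios of GFP-812 cells were all below the 3 of GFP cells. The mean log2 ratio differed by -0.44 (exact permutation test, 2-sided p = 0.1, the smallest that this test allows with 3 against 3 libraries). The other CUL2 receptors on a list of 11 genes, which includes the von Hippel-Lindau type and the C-terminal degron receptors, gave 0 risen and 0 fallen in edgeR's test, with 1 higher and 2 lower at an unadjusted p under 0.05. DESeq2 and limma-voom called 0 there. The most abundant gene of the list, the C-terminal degron receptor KLHDC3, had 44.27, 46.59 and 47.66 FPKM in GFP-812 libraries, against 43.75, 42.57 and 45.12 FPKM in GFP libraries. Those groups overlapped.

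**Figure D2:**
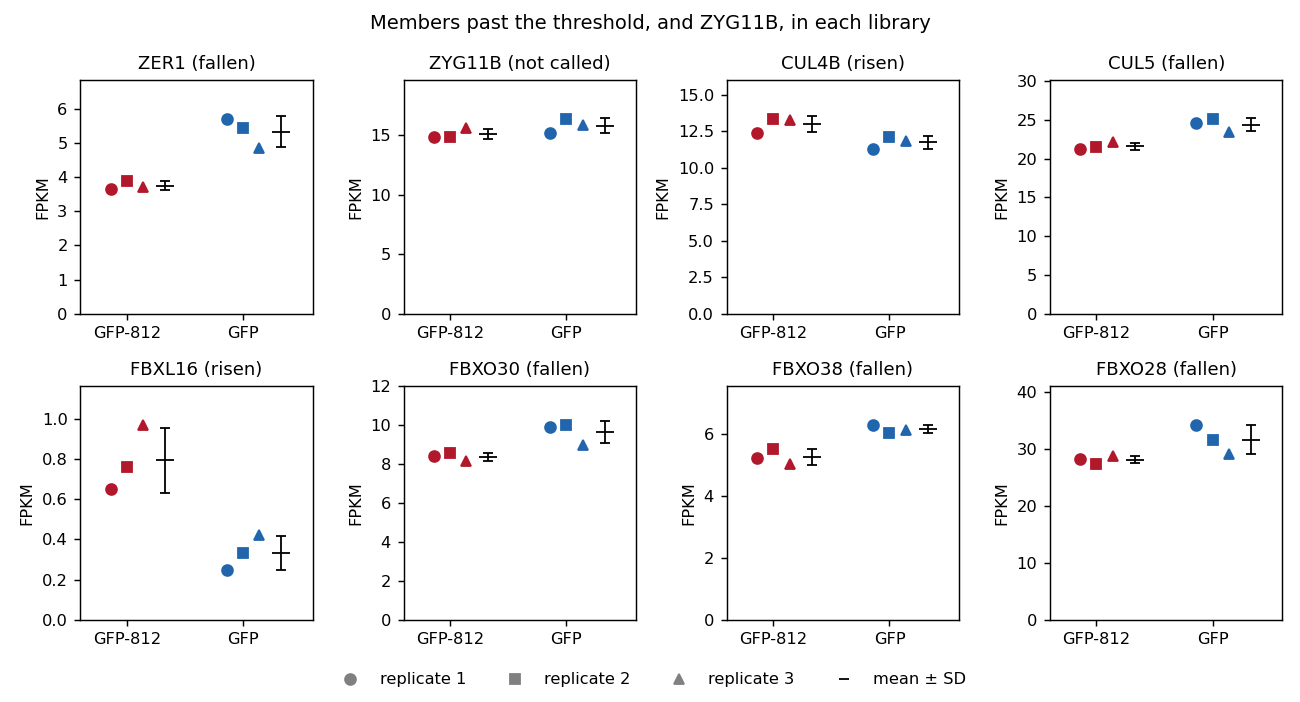
FPKM in each library (symbols by replicate number, with the mean and SD beside them) of the 7 genes past the threshold and of ZYG11B, with GFP-812 on the left and GFP on the right of each panel and axes starting at 0. The groups do not overlap for the 7 genes, the gap between the nearest libraries is narrow for CUL4B and FBXO28, and ZYG11B overlaps.

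All 8 cullins were expressed and tested, and 1 rose, 1 fell and 6 did not pass. Of all genes tested, 1.18% rose and 2.67% fell, and with 8 cullins each share rests on 1 gene. CUL5, the scaffold that works with elongins and SOCS-box receptors, had 21.23, 21.52 and 22.11 FPKM in GFP-812 libraries, against 24.66, 25.17 and 23.44 FPKM in GFP libraries. All 3 GFP-812 libraries were lower than all 3 GFP libraries. CUL5 averaged 21.6 ± 0.448 FPKM in GFP-812 cells and 24.4 ± 0.889 FPKM in GFP cells (SD, n = 3 each), a log2 fold change of -0.16 (SE 0.0452, fold 0.893, adjusted p 0.0265, edgeR's quasi-likelihood test). The call was lost in 5 of the 6 fits without 1 library (adjusted p up to 0.168), and held without GFP replicate 3.

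CUL4B is, with CUL4A, the scaffold that binds the adaptor DDB1 and its DCAF receptors. It had 12.37, 13.35 and 13.27 FPKM in GFP-812 libraries, against 11.25, 12.08 and 11.84 FPKM in GFP libraries. The lowest GFP-812 library stood just above the highest GFP library. CUL4B averaged 13.0 ± 0.544 FPKM in GFP-812 cells and 11.7 ± 0.427 FPKM in GFP cells (SD, n = 3 each), a log2 fold change of 0.16 (SE 0.039, fold 1.12, adjusted p 0.00757, edgeR's quasi-likelihood test). The call was lost without GFP-812 replicate 2 or 3 or GFP replicate 1 (adjusted p up to 0.135). CUL4B overlaps MCTS1 on the opposite strand, whose own log2 fold change was 0.09 (adjusted p 0.358), with 10.94, 10.52 and 10.59 FPKM in GFP-812 libraries and 10.16, 10.00 and 10.23 FPKM in GFP libraries. The part of reads shared with MCTS1 in the CUL4B value was not tested.

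CUL4A, its paralogue, had 9.76, 10.51 and 10.34 FPKM in GFP-812 libraries, against 10.47, 11.30 and 10.97 FPKM in GFP libraries, and the groups overlapped (log2 fold change -0.08, adjusted p 0.462). CUL1, the scaffold of the SCF ligases, had 42.56, 42.13 and 42.02 FPKM in GFP-812 libraries, against 46.66, 44.07 and 43.20 FPKM in GFP libraries. The groups of CUL1 did not overlap, but its log2 fold change of -0.07 did not pass (adjusted p 0.462). CUL3, the scaffold of the Kelch receptors, had 10.69, 11.38 and 10.93 FPKM in GFP-812 libraries and 12.33, 12.08 and 11.33 FPKM in GFP libraries. Here GFP replicate 3 fell inside the range of the GFP-812 libraries (log2 fold change -0.10, adjusted p 0.264, edgeR's quasi-likelihood test). CUL2, the scaffold for ZER1 and ZYG11B, had 5.20, 5.01 and 4.83 FPKM in GFP-812 libraries and 5.81, 5.45 and 4.80 FPKM in GFP libraries (log2 fold change -0.08, adjusted p 0.521).

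CUL7 and CUL9 are large atypical cullins, CUL9 being a p53-binding protein. CUL7 stayed at 1.77 to 1.93 FPKM in GFP-812 libraries and 1.89 to 1.97 FPKM in GFP libraries (log2 fold change -0.03, adjusted p 0.926). CUL9 had 1.35, 1.38 and 1.36 FPKM in GFP-812 libraries, all above the 1.11, 1.32 and 1.15 FPKM in GFP libraries, and did not pass (log2 fold change 0.20, adjusted p 0.336, edgeR's quasi-likelihood test). Summed over the 8 cullins, the level was 105.0, 107.2 and 106.6 FPKM in GFP-812 libraries and 114.2, 113.4 and 108.7 FPKM in GFP libraries. In FPKM the sum was lower in every GFP-812 library, and CUL1 and CUL5 give most of it. Unlike the fold change of a single gene, a sum of FPKM depends on the exonic sizes in the table. CUL4B, which rose, has a size 6.9 times its longest GENCODE release 29 transcript, which lowers its part in the sum. Whether the sum is lower with other sizes was not tested.

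The order of the cullins by mean FPKM over the 6 libraries was CUL1 (43.4), CUL5 (23.0), CUL4B (12.4), CUL3 (11.5), CUL4A (10.6), CUL2 (5.18), CUL7 (1.89) and CUL9 (1.28). The libraries of CUL4B, CUL3 and CUL4A overlap one another, while the ranges of the other neighbours are apart. This order depends on the exonic size in the table, which joins all annotated exons of a gene. For CUL4B that size is 33815 bases, 6.90 times the 4902 bases of its longest transcript in GENCODE release 29, and for CUL2 the multiple is 3.26. If all reads came from the longest transcript, CUL4B would stand at 85.3 and CUL1 at 58.9 on the same scale, so the order of these genes is uncertain. Fold changes of single genes between the groups do not depend on that size, while the summed level of the cullins does.

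**Figure D3:**
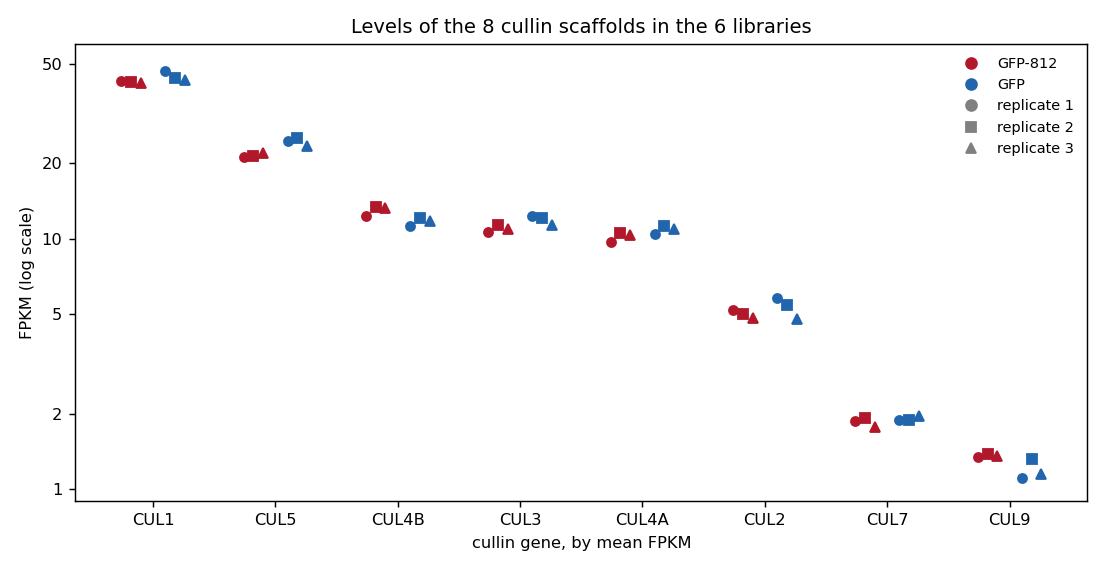
FPKM (log scale) of the 8 cullins in each library, GFP-812 left of GFP for each gene, with symbols by replicate number. CUL1 is at 42.02 to 46.66 FPKM and CUL9 at 1.11 to 1.38 FPKM, and the GFP-812 and GFP libraries of each gene lie close together on this scale.

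F-box proteins link substrates to CUL1 through the adaptor SKP1. Of the 62 F-box genes, 55 were tested, 1 rose, 3 fell and 51 did not pass, with a median log2 fold change of -0.03. The shares of the 55 were 1.82% risen and 5.45% fallen, against 1.18% and 2.67% of all genes tested. The 3 that fell were all among the 31 FBXO genes tested (median log2 fold change -0.03), the 1 that rose was among 16 FBXL genes (median 0.06), and none of the 8 FBXW genes passed. Of the 8 FBXW genes, 7 had log2 fold changes below 0, with a median of -0.06, and 0 were under an unadjusted p of 0.05 in edgeR's test or called by DESeq2 or limma-voom. Of all 16834 genes tested, 8106 lay below 0. The split by subfamily rests on 3 fallen genes and 1 risen gene, and a difference between subfamilies was not tested.

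FBXO28, a receptor known to ubiquitinate MYC without marking it for destruction, lies on chr1:224114111-224162047. It had 28.12, 27.41 and 28.72 FPKM in GFP-812 libraries, against 34.19, 31.47 and 29.14 FPKM in GFP libraries. GFP replicate 3 lay close to the GFP-812 libraries. FBXO28 averaged 28.1 ± 0.656 FPKM in GFP-812 cells and 31.6 ± 2.53 FPKM in GFP cells (SD, n = 3 each), a log2 fold change of -0.16 (SE 0.0467, fold 0.897, adjusted p 0.0414, edgeR's quasi-likelihood test). Without GFP replicate 1 the log2 fold change was -0.09 with an adjusted p of 0.437.

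FBXO30, known in mouse muscle as an atrophy-linked ubiquitin ligase, lies on chr6:145793502-145814795. It had 8.39, 8.57 and 8.15 FPKM in GFP-812 libraries, against 9.89, 10.01 and 8.98 FPKM in GFP libraries. The groups did not overlap, with GFP replicate 3 again the nearest. The gene overlaps the divergent transcript EPM2A-DT in the table. FBXO30 averaged 8.37 ± 0.211 FPKM in GFP-812 cells and 9.63 ± 0.563 FPKM in GFP cells (SD, n = 3 each), a log2 fold change of -0.19 (SE 0.0549, fold 0.877, adjusted p 0.0348, edgeR's quasi-likelihood test).

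FBXO38, known in T cells as the receptor that marks the inhibitory receptor PD-1, lies on chr5:148383935-148442836. It had 5.20, 5.51 and 5.01 FPKM in GFP-812 libraries, against 6.28, 6.01 and 6.13 FPKM in GFP libraries. All 3 GFP-812 libraries were lower, and GFP replicate 2 was the nearest GFP library. FBXO38 averaged 5.24 ± 0.252 FPKM in GFP-812 cells and 6.14 ± 0.135 FPKM in GFP cells (SD, n = 3 each), a log2 fold change of -0.22 (SE 0.0641, fold 0.86, adjusted p 0.0405, edgeR's quasi-likelihood test). Like CUL5, the genes FBXO28, FBXO30 and FBXO38 each passed in only 1 of the 6 fits without 1 library, the one without GFP replicate 3, and their adjusted p in the others reached 0.437, 0.212 and 0.26.

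FBXL16, an F-box protein with leucine-rich repeats, was the member with the largest fold change among those called. It lies on chr16:692498-705808 and had 0.65, 0.76 and 0.97 FPKM in GFP-812 libraries, against 0.25, 0.33 and 0.42 FPKM in GFP libraries. The groups were apart, at a low level. The reads behind these values were 37, 47 and 68 in GFP-812 libraries and 16, 21 and 27 in GFP libraries. The span of the gene overlaps that of ENSG00000261659 in the table, and whether reads of ENSG00000261659 enter its count was not tested. FBXL16 averaged 0.793 ± 0.163 FPKM in GFP-812 cells and 0.333 ± 0.085 FPKM in GFP cells (SD, n = 3 each), a log2 fold change of 1.27 (SE 0.29, fold 2.41, adjusted p 0.00432, edgeR's quasi-likelihood test). Leaving out GFP-812 replicate 3 gave an adjusted p of 0.0894 and leaving out GFP replicate 1 gave 0.0513, so the call was lost in both.

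**Figure D4:**
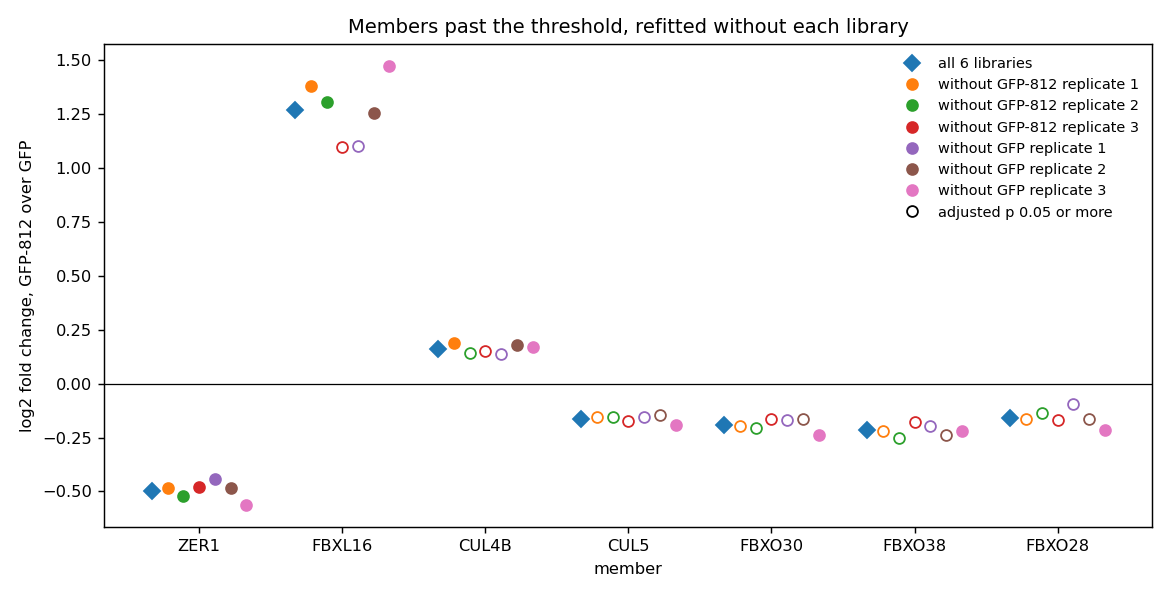
Log2 fold change of GFP-812 over GFP for the 7 genes past the threshold, with all 6 libraries (diamonds) and without each library in turn (circles, open where the adjusted p was 0.05 or more). ZER1 is filled throughout, FBXL16 in 4 of 6 and CUL4B in 3 of 6, while CUL5, FBXO30, FBXO38 and FBXO28 are filled only without GFP replicate 3.

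The nearest GFP library to the GFP-812 mean was GFP replicate 3 for 5 of the 7 called members and for 444 of all 647 called genes (68.6%). Other abundant F-box genes did not pass edgeR's quasi-likelihood test. FBXO5 (EMI1), an inhibitor of the anaphase-promoting complex, had 30.04, 30.26 and 30.21 FPKM in GFP-812 libraries and 31.92, 30.35 and 30.29 FPKM in GFP libraries (log2 fold change -0.02, adjusted p 0.893). FBXW11, the beta-TrCP receptor that recognises phosphorylated beta-catenin and IκB, had 28.93, 29.56 and 27.93 FPKM in GFP-812 libraries and 30.07, 30.38 and 29.33 FPKM in GFP libraries (log2 fold change -0.04, adjusted p 0.693). The groups of FBXO5 only just missed each other in FPKM, and those of FBXW11 overlapped.

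Among members that missed the threshold, the 3 smallest p-values belonged to KLHL8, FBXO48 and FBXL2. FBXO48 had 1.93, 2.29 and 2.47 FPKM in GFP-812 libraries and 3.12, 2.65 and 2.57 FPKM in GFP libraries, with no overlap (log2 fold change -0.30, adjusted p 0.143). FBXL2, a receptor that carries a lipid anchor, had 1.93, 2.34 and 2.35 FPKM in GFP-812 libraries and 1.62 to 2.00 FPKM in GFP libraries, and GFP-812 replicate 1 overlapped the GFP libraries (log2 fold change 0.28, adjusted p 0.156, edgeR's quasi-likelihood test).

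Kelch proteins join the adaptor and receptor roles in one chain, binding CUL3 through a BTB domain and the substrate through Kelch repeats. Of the 37 Kelch genes, 29 were tested and 0 rose and 0 fell in edgeR's test. At an unadjusted p under 0.05, 1 was higher and 3 were lower, against 1219 higher and 1498 lower of all 16834 genes tested. DESeq2 and limma-voom also called 0 Kelch genes. The log2 fold changes split into 15 above and 14 below 0, with a median of 0.0031 and a range of -0.28 to 0.54.

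KLHL15, which targets a regulatory subunit of the phosphatase PP2A, had 28.08, 27.27 and 27.51 FPKM in GFP-812 libraries and 29.15, 30.40 and 26.44 FPKM in GFP libraries (log2 fold change -0.04, adjusted p 0.712). KLHL12, which marks the COPII coat protein SEC31, had 25.00, 26.48 and 23.84 FPKM in GFP-812 libraries and 23.50, 26.17 and 23.96 FPKM in GFP libraries (log2 fold change 0.04, adjusted p 0.745). The groups overlapped in both. KLHL23 had 15.27, 15.12 and 14.07 FPKM in GFP-812 libraries and 16.85, 15.68 and 16.25 FPKM in GFP libraries, with all 3 GFP-812 libraries lower but a log2 fold change of -0.12 that did not pass (adjusted p 0.223). KLHL8, a receptor for the synaptic protein rapsyn, had 12.67, 12.06 and 12.54 FPKM in GFP-812 libraries and 13.54, 15.05 and 13.11 FPKM in GFP libraries. It was lower in every GFP-812 library, and its log2 fold change of -0.15 did not pass (adjusted p 0.105, edgeR's quasi-likelihood test). Summed over the 37 genes, the level was 174.7, 169.8 and 169.1 FPKM in GFP-812 libraries and 177.6, 179.3 and 170.4 FPKM in GFP libraries, which overlap.

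The 15 members with too few counts had mean levels of 0 to 0.162 FPKM. They were 7 F-box genes (FBXL22, FBXO6, FBXO15, FBXO39, FBXO40, FBXO47 and FBXW12) and 8 Kelch genes (KLHL1, KLHL6, KLHL10, KLHL30, KLHL33, KLHL34, KLHL38 and KLHL40). Of these, FBXO39, FBXO40 and KLHL6, named after their values were seen, had no read in any library. Of all 109, 81 averaged at least 1 FPKM over the 6 libraries and 21 at least 10 FPKM.

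With all genes tested ranked by exonic size into 3 bins of like number, 0.677% of the shortest bin fell, 2.37% of the middle bin and 4.95% of the longest bin. The shares that rose were 1.37%, 1.21% and 0.944% in the same order of bins. The 94 members are long, with a median exonic size of 5998 bases against 4862 for all genes tested, and 43 of them lie in the longest bin, 37 in the middle and 14 in the shortest. The 5 that fell comprise 3 from the middle and 2 from the longest bin, and the 2 that rose comprise 1 from each of these. In a fit with a smooth correction for exonic size, 2 members rose and 5 fell.

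Promoters of 4 of the 5 members that fell are shown, so that genes that moved the same way can be set side by side. They come from RefSeq (GRCh38.p14), 250 bases before to 50 after each start site. ZER1 and FBXL16 are named without a window. Capitals mark matches, on either strand, to CCGGAAG (the core of ETS sites), GGGCGG (the GC box), TGACG (found in cyclic AMP response elements) or CACGTG (an E-box). Overlapping matches are joined. The windows are chr1:224113861-224114160 for FBXO28, chr5:148383708-148384007 for FBXO38 and chr11:108008648-108008947 for CUL5, all on the plus strand, and chr6:145814746-145815045 on the minus strand for FBXO30, each written 5′ to 3′.
FBXO28: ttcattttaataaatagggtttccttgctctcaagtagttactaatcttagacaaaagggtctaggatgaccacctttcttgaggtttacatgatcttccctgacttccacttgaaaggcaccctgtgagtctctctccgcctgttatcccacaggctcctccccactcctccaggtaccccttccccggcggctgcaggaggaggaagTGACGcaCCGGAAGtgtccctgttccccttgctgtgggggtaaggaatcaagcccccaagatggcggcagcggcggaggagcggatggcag
FBXO38: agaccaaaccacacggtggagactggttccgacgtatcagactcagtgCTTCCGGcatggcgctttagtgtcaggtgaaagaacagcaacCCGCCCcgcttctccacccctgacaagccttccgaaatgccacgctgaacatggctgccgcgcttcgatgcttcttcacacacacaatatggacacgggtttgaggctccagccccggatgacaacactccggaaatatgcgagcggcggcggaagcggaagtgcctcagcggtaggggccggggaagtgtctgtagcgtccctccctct
FBXO30: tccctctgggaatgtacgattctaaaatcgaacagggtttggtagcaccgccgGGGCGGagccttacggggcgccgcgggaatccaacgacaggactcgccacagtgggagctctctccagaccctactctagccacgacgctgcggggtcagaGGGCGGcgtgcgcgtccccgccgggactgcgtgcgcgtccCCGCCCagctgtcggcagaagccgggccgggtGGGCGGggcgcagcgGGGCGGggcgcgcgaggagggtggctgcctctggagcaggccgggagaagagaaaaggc
CUL5: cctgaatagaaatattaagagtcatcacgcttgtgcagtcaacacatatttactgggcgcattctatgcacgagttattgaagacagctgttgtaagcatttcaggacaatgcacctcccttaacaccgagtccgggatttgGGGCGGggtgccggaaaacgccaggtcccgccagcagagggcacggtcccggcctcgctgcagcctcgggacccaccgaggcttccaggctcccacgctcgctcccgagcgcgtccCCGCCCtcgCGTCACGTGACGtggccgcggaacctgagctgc

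FBXO28 holds 1 CCGGAAG match next to 1 TGACG match, and FBXO38 holds 1 CCGGAAG and 1 GGGCGG match. FBXO30 holds 5 GGGCGG matches and none of the other motifs. CUL5 holds 2 GGGCGG matches and a run in which CACGTG overlaps 2 TGACG matches on opposite strands. None of the 4 motifs is present in all 4 windows. Of the 35116 promoter windows in the table, 10.3% hold CCGGAAG, 45.0% GGGCGG, 24.6% TGACG and 7.26% CACGTG. Among the 133 windows of the 89 members with an entry, the shares were 15.8%, 60.9%, 39.8% and 8.27%. A match is a description of the letters in the window, and binding was not measured.

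The rest of the pathway was followed through 9 lists with 141 genes outside the rule. Of these, 134 were tested, 3 rose (2.24%) and 3 fell (2.24%), against 1.18% and 2.67% of all genes tested. The 6 called genes were ELOB, KCTD17, DCAF4, PHIP, ASB7 and ARIH1, and they belong to 5 different lists. Within a list, at most 1 gene rose and at most 1 fell. The share of a single list, set beside those of all genes tested, therefore rests on 1 gene. DCAF4 and ASB7 were called in all 6 fits without 1 library, PHIP in 5, ELOB and KCTD17 in 4 and ARIH1 in 2.

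RING and adaptor subunits sit between the cullin and its partners. Of 9, 1 rose, 0 fell and 7 had log2 fold changes above 0, with a median of 0.14. Of all 16834 genes tested, 8728 lay above 0. At an unadjusted p under 0.05 in edgeR's test, 5 of the 9 were higher and 0 lower, against 1219 and 1498 of all genes tested. ELOB (elongin B), an adaptor subunit shared by CUL2 and CUL5, had 10.07, 10.10 and 9.98 FPKM in GFP-812 libraries, against 8.38, 7.72 and 9.23 FPKM in GFP libraries. Every GFP-812 library was higher (log2 fold change 0.26, SE 0.0646, adjusted p 0.00916, edgeR's quasi-likelihood test). The exonic size of ELOB in the table is 5714 bases, 5.73 times its longest GENCODE release 29 transcript. The span of the gene overlaps that of SRRM2, and whether reads of SRRM2 enter its count was not tested. The call was lost without GFP-812 replicate 2 or GFP replicate 2 (adjusted p up to 0.103).

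ELOC, the partner of ELOB, had 8.04, 7.54 and 7.91 FPKM in GFP-812 libraries and 6.53, 7.33 and 7.67 FPKM in GFP libraries, which overlap (log2 fold change 0.14, adjusted p 0.203). RBX1, the RING protein of most cullins, had 18.65, 18.58 and 17.55 FPKM in GFP-812 libraries and 15.83, 16.08 and 16.21 FPKM in GFP libraries. Its groups were apart and it just missed the threshold (log2 fold change 0.20, adjusted p 0.0539). ELOC and RBX1 were named after their values were seen, as are SKP1 and GLMN here. SKP1, the adaptor of the F-box proteins, had a log2 fold change of 0.02 (adjusted p 0.95, edgeR's quasi-likelihood test). GLMN, of the same list, had one of -0.08 (adjusted p 0.572, same test). DDB1, the adaptor of CUL4A and CUL4B, had 22.38, 22.65 and 22.42 FPKM in GFP-812 libraries and 22.45, 22.99 and 23.38 FPKM in GFP libraries (log2 fold change -0.02, adjusted p 0.89, edgeR's quasi-likelihood test).

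The neddylation list (12 genes: NEDD8 itself, the enzymes that activate and attach it, and genes that process or remove it) and the COP9 signalosome with the exchange factors (12 genes) gave 0 called in either direction by edgeR. At an unadjusted p under 0.05 the first list had 0 higher and 0 lower, and the second had 1 higher and 1 lower. DESeq2 and limma-voom called 0 in both. Their median log2 fold changes were -0.02 and 0.01. NAE1, a subunit of the enzyme that activates NEDD8, had 44.77, 47.08 and 43.64 FPKM in GFP-812 libraries and 45.43, 43.05 and 43.71 FPKM in GFP libraries. COPS3, a signalosome subunit, had 49.33, 47.01 and 45.24 FPKM in GFP-812 libraries and 57.00, 48.60 and 52.48 FPKM in GFP libraries. The groups overlapped in both, and COPS3 missed the threshold (log2 fold change -0.15, adjusted p 0.0803, edgeR's quasi-likelihood test).

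Among 10 ubiquitin-transfer partners, 0 rose and 1 fell. ARIH1, a ligase that adds the first ubiquitin on substrates of NEDD8-bearing cullins, had 9.46, 8.83 and 9.04 FPKM in GFP-812 libraries, against 10.35, 10.42 and 9.78 FPKM in GFP libraries. All GFP-812 libraries were lower (log2 fold change -0.15, SE 0.0422, adjusted p 0.0312, edgeR's quasi-likelihood test). The call was lost without GFP-812 replicate 2 or 3 or GFP replicate 1 or 2 (adjusted p up to 0.273). UBA1, the ubiquitin-activating enzyme, had 74.47, 76.46 and 73.69 FPKM in GFP-812 libraries and 75.55, 76.73 and 77.52 FPKM in GFP libraries, which overlap.

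Of 24 CUL4 receptors, all tested, 1 rose and 1 fell. DCAF4 had 4.56, 4.14 and 4.38 FPKM in GFP-812 libraries, against 3.35, 3.31 and 3.25 FPKM in GFP libraries, and all GFP-812 libraries were higher (log2 fold change 0.41, SE 0.0916, adjusted p 0.00321). PHIP, a receptor with bromodomains that bind chromatin, had 13.35, 13.24 and 13.86 FPKM in GFP-812 libraries, against 15.47, 16.10 and 14.62 FPKM in GFP libraries. It was lower in every GFP-812 library (log2 fold change -0.18, SE 0.0413, adjusted p 0.005, edgeR's quasi-likelihood test), and the call was lost without GFP-812 replicate 2 (adjusted p 0.106). DTL (CDT2), the receptor that removes the replication factor CDT1, had 42.98, 44.59 and 44.17 FPKM in GFP-812 libraries and 46.04, 46.52 and 46.29 FPKM in GFP libraries. Its groups were apart but it did not pass (log2 fold change -0.06, adjusted p 0.465).

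Of 26 CUL5 SOCS-box receptors, 23 were tested, 0 rose and 1 fell. ASB7, an ankyrin repeat receptor, had 6.58, 6.84 and 7.48 FPKM in GFP-812 libraries, against 8.85, 8.92 and 8.47 FPKM in GFP libraries, with all GFP-812 libraries lower (log2 fold change -0.31, SE 0.069, adjusted p 0.00301). SOCS4, a suppressor of cytokine signalling, had 19.87, 19.97 and 19.16 FPKM in GFP-812 libraries and 20.66, 22.39 and 20.31 FPKM in GFP libraries, and did not pass (log2 fold change -0.09, adjusted p 0.327, edgeR's quasi-likelihood test).

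Of 27 BTB receptors under other names, 25 were tested, 1 rose and 0 fell. KCTD17, a CUL3 receptor known to remove the ciliary protein trichoplein, had 3.63, 4.12 and 3.53 FPKM in GFP-812 libraries, against 2.56, 2.17 and 2.73 FPKM in GFP libraries. The groups were apart (log2 fold change 0.61, SE 0.142, adjusted p 0.00532, edgeR's quasi-likelihood test), and the call was lost without GFP-812 replicate 2 or GFP replicate 2 (adjusted p up to 0.0835). BTBD1 had 81.04, 81.90 and 82.63 FPKM in GFP-812 libraries and 85.89, 85.11 and 82.67 FPKM in GFP libraries (log2 fold change -0.03, adjusted p 0.725). Of 10 F-box genes under other names, 8 were tested and 0 were called by edgeR, with 0 higher and 1 lower at an unadjusted p under 0.05, and 0 by DESeq2 and limma-voom. SKP2, the receptor for the cell cycle inhibitor p27, had 11.03, 11.00 and 11.13 FPKM in GFP-812 libraries and 10.90, 11.78 and 11.15 FPKM in GFP libraries, which overlap.

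**Figure D5:**
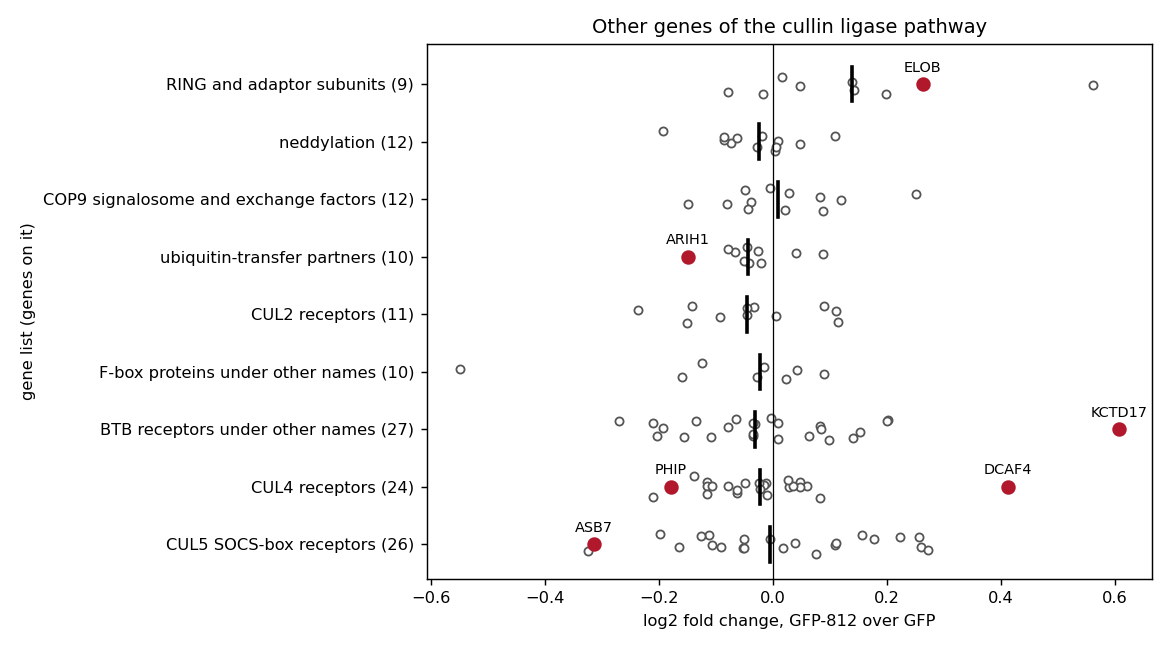
Log2 fold change of GFP-812 over GFP for the tested genes of the 9 pathway lists, 1 point a gene, with the list's median as a bar and the 6 genes past the threshold filled and named. Medians lie between -0.05 and 0.14, and ELOB, KCTD17 and DCAF4 lie above 0 while ARIH1, PHIP and ASB7 lie below.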

How the data were processed

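RNA of 6 libraries, 3 with the GFP-812 plasmid and 3 with the GFP plasmid, was compared, grouped by the sample titles. Per the submitters' processing notes, the authors used HTSeq 0.6.1, HISAT2 2.2.1, FastQC 0.10.1 and cutadapt 1.9.1 on build hg38. The annotation release is not given in the sources used here, nor is the strand setting. The authors deposited raw counts and FPKM per library, per the file headers; FPKM equalled the count divided by exonic size and library total within 0.0051 for 100% of values. Positions are those of the table.

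Counts were tested with edgeR 4.0.16 in R 4.3.3 (TMM scaling, genes kept by filterByExpr, group as only term, quasi-likelihood F test, 2-sided, Benjamini-Hochberg over 16834 genes, threshold 0.05), after a check on simulated data. Alternatives were other scalings and filters, replicate block, exonic size correction, leaving out each library, DESeq2 1.42.0, and limma 3.58.1 on counts (voom) and on log2(FPKM + 1) or log2(FPKM + 0.1). All libraries of a group differed beyond sampling noise. Members and lists were chosen with earlier results of these data known. Named genes are ZER1, ZYG11B, the cullins, called members, the 4 most abundant F-box and Kelch genes, the 3 smallest p-values among members that missed the threshold, and, per list, the called and the most abundant genes. A gene that this rule names is not reported here.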

Additional observations from a re-analysis of the deposited data

How the results depend on the processing

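Of 675 refits of 38 named genes, 598 kept direction and side of the threshold, 66 lost the call, 8 gained it and 3 changed sign, none of a called gene. Leaving out 1 library gave log2 fold changes of -0.0565 to 0.0084 for CUL7 (above 0 without GFP-812 replicate 3), -0.0358 to 0.0088 for FBXO5 (above 0 without GFP replicate 1) and -0.0364 to 0.0123 for SKP2 (above 0 when GFP replicate 2 was dropped). The cause was not tested.

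Leaving out 1 library moved the number of genes called from 647 to between 209, when GFP-812 replicate 2 was dropped, and 1317, when GFP replicate 3 was. Leaving out GFP-812 replicate 3 gave 292, leaving out GFP replicate 1 gave 263 and leaving out GFP replicate 2 gave 414. Over these refits, members risen ranged from 0 to 2 and members fallen from 1 to 6, the 6 being without GFP replicate 3, where KLHL8 was added. List genes risen ranged from 1 to 6 and fallen from 1 to 9. The difference between groups (GFP-812 minus GFP) in the mean log2 ratio of ZER1 to ZYG11B ranged from -0.51 to -0.36.

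With a minimum mean FPKM of 1, 1 member rose. Upper-quartile scaling called 2 members fallen (ZER1 and CUL5), and 54.8% of all calls fell, against 69.4%. Total-count scaling called 5 list genes fallen, and the exonic size correction with replicate block 8. DESeq2 called 1 member risen and 2 fallen, and 1 list gene risen and 4 fallen. Among the CUL4 receptors it called 0 risen and 2 fallen, against 1 and 1 in edgeR's test. DESeq2 gave no adjusted p for 2 of the 7 called members, ZER1 and FBXL16, nor for 2 of the 6 called list genes, KCTD17 and DCAF4. Limma called 5 genes on log2(FPKM + 1) and 7 on log2(FPKM + 0.1), with 0 members and 0 list genes in either direction; ZER1 had an adjusted p of 0.0862 and 0.0856.

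The replicate block called 777 genes, with 2 members risen and 5 fallen. Of the list genes it called 4 risen and 4 fallen, with RBX1 (adjusted p 0.044) and COPS3 (adjusted p 0.0492) added to those called without it. Deviations of libraries with the same number were nearly uncorrelated over genes (correlations 0.0318, -0.0102 and 0.00614). Such correlations cannot exclude a batch shared by libraries of the same number. The block called more genes than the main fit (647), and all 7 called members had a smaller adjusted p with it. For ZER1 it was 7.68e-05 against 0.000614 (edgeR's quasi-likelihood test). The main fit does not read the numbers as pairs, and whether they are pairs was not settled. For genes with few reads, such as FBXL16, depth limits the precision.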
